A study of Arabidopsis thaliana with 6 samples.

Results

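The 100 most abundant transcripts of Arabidopsis stems were described: the genes with the highest mean FPKM (fragments per kilobase of exon, scaled to library size, a level corrected for gene length and depth) over 6 libraries, of 24434 genes in the deposited table. The mean level over both genotypes chose them, so their high levels describe the list and are no finding. RNA was sequenced from stems of Arabidopsis thaliana (thale cress), Columbia ecotype, in 3 plants that overexpress a gene labelled Bnt07G011994 and 3 WT (wild-type) plants. All plants grew in a greenhouse at 22 °C under 15 h of light alternating with 9 h of dark, and stems were taken at about 10 cm, those of 1 plant forming 1 sample. The labels name neither the product of Bnt07G011994 nor the promoter that drives it, and do not say whether the overexpressor plants come from a single transgenic line, at what hour stems were cut, or in which batch libraries were made.

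An inflorescence stem is a green organ whose outer cortex photosynthesises, while its vascular bundles and fibres build thick walls and its epidermis is sealed by a cuticle. In photosynthesis, light-harvesting antenna proteins pass energy to the photosystems, the electron transport chain makes ATP and NADPH, and the Calvin cycle uses them to fix carbon dioxide through Rubisco. Photorespiration recycles the product formed when Rubisco takes oxygen in place of carbon dioxide.

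The libraries held 44597288 to 45642240 reads each, recovered from the FPKM values, and each of the 100 genes had at least 3534 reads in every library, so counting error is small beside the differences between plants. WT replicate 1 stood apart: for 75 of the 100 genes it held the highest or the lowest of the 6 values, against 74.3% of the 16870 genes tested, and it is therefore named wherever it carries a value. Of the defining markers of stem tissue, the summed level of 5 wall genes of fibres and vessels, all detected, was 630 to 962 FPKM in the overexpressor and 141 to 816 FPKM in WT, with the lowest value in WT replicate 1. The 4 epidermis markers summed to 409 to 514 FPKM in the overexpressor and 208 to 534 FPKM in WT, again lowest in WT replicate 1. CER6 and CER1 made up nearly all of that sum, while PDF1 and ATML1 reached at most 5.16 FPKM. PDF1 was lowest in WT replicate 2, the other epidermis markers in WT replicate 1. The 3 phloem markers, mostly SUC2, summed to 152 to 155 FPKM in the overexpressor and 132 to 180 FPKM in WT. SUC2 and SEOR1 were lowest in WT replicate 1, and APL was highest there. The 5 flower markers stayed at 1.55 to 3.79 FPKM in the overexpressor and 1.32 to 3.74 FPKM in WT, and root and seed markers at no more than 1.70 FPKM, with both root markers at 0 in overexpressor replicates 1 and 2 and all 3 seed markers at 0 in overexpressor replicates 2 and 3 and in WT replicate 2. Their part in the results below was not tested. In whole stems, fewer cells of a type and less RNA per cell cannot be told apart.

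A small number of genes made up a large part of the stem transcriptome. The 100 genes held 21.8, 22.96 and 22.3% of the summed FPKM in overexpressor replicates 1, 2 and 3, against 22.7, 21.4 and 21.1% in WT replicates 1, 2 and 3; per-library values below keep this order. The group means were 22.3 ± 0.580% in the overexpressor and 21.7 ± 0.869% in WT (SD, n = 3 each), a difference within the spread between plants (0.595 percentage points, exact permutation test, two-sided, p = 0.4, where 0.1 is the smallest p that 3 against 3 libraries allow). The first gene alone held 1.69% on average, the first 10 held 6.72% and the first 50 held 15.8%, and 942 genes were needed for 50% of the summed FPKM. Counted as reads, without the correction for length, the 100 genes held 18.8% on average.

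**Figure D1:**
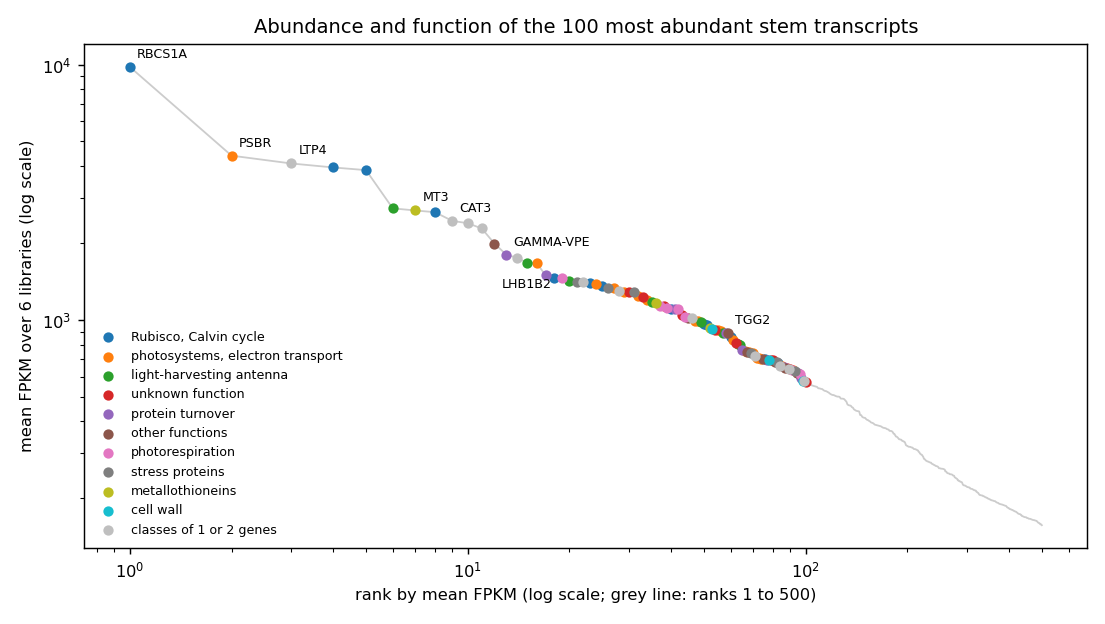
Mean FPKM over the 6 libraries (vertical axis, log scale) against rank by mean FPKM (horizontal axis, log scale) for the 100 genes, coloured by functional class, with the grey line continuing to rank 500. The level at rank 1 was 17.1 times that at rank 100, and the curve passes rank 100 without a step.

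Ranks 99 and 100 were held by GAPC2 (a cytosolic glyceraldehyde-3-phosphate dehydrogenase) at a mean of 574 FPKM and the uncharacterised AT5G21020 at 573 FPKM. Just outside the list stood PSBTN (a photosystem II subunit) at 569.8 FPKM and SVR3 (annotated as an elongation factor family protein) at 567 FPKM. These 4 levels lie closer together than the replicates of any of the 4 genes, so the edge of the list is one of counting rank only.

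Most of the list recurred in each plant. The mean of the same 6 libraries chose the list, so the overlaps given here are high in part by construction. RBCS1A was the most abundant transcript in all 6 libraries. Of the 100 genes, 90, 94 and 94 were in the 100 highest of the overexpressor libraries, against 86, 89 and 87 in those of the WT libraries. In all 6 libraries at once 67 of them were among the 100 highest, and 96 were among the 200 highest. The list overlapped by 95 genes with the 100 highest means of the overexpressor alone and by 96 with those of WT alone. Ranked by reads in place of FPKM, 78 of the 100 stayed. Short transcripts such as CP12-2, MT2B and PSBX left, and long ones such as GLU1, a chloroplast glutamate synthase, entered.

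All 100 genes are nuclear and protein-coding, and they are short. The median exonic length was 1409 bp over the 100, against 1784 bp over all genes tested, and the median number of exons was 3 against 5. The 78 chloroplast-encoded genes in the table together held only 0.0772 to 0.0951% of the summed FPKM in the overexpressor and 0.0720 to 0.0797% in WT, and the highest of them ranked 777th. The labels do not say how ribosomal RNA was removed from the libraries. How fully the libraries captured chloroplast-encoded transcripts is therefore not known, and their low share need not be their share in the stem.

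Photosynthesis was the largest function. Of the 100 genes, 41 encode parts of it: 20 subunits of the photosystems and of electron transport, 13 proteins of Rubisco and the Calvin cycle and 8 antenna proteins. They held 11.4, 11.3 and 11.02% of the summed FPKM in the overexpressor, against 10.8, 10.4 and 10.2% in WT, and 49.2% of the FPKM of the 100 genes. The groups did not overlap (a difference of 0.789 percentage points, exact permutation test, two-sided, p = 0.1, the smallest possible). This sum is outside the 18 classes corrected below, and the groups overlapped in each of its 3 classes. WT replicate 1 had the highest antenna share (2.44%) and the lowest Rubisco and Calvin cycle share (4.21%). The shares of the 200, 500 and 1000 highest genes did not overlap either, higher in the overexpressor by 1.09, 1.39 and 1.38 percentage points. Whether the separation is particular to photosynthesis was not tested. With the 7 photorespiration genes, 48 genes held 54.8% of the FPKM of the list. The other classes of at least 3 genes were smaller. There were 11 genes of unknown or poorly described function, 9 of protein turnover, 8 of other functions, 6 stress proteins, 3 metallothioneins and 3 cell wall genes, and the last 12 genes fell into classes of 1 or 2. The genes given with their values below were picked by level within their class, by evenness and by separation of the groups; further ones, among them GRP7, CA1, PSAD-1, LTP3, LHCA1, LHCA3 and LHCA4, were chosen after their values were seen.

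Of the 18 classes whose share was compared between the genotypes, 2 reached the smallest possible p of 0.1, and the smallest Benjamini-Hochberg adjusted p of these exact permutation tests was 0.9. The 2 were protein turnover, with a lower share in the overexpressor, and other metabolism and cell functions, with a higher one. With 3 against 3 libraries this test cannot give a p under 0.1, which already lies above the threshold used for genes. No class share could have passed, with or without correction, so these tests cannot decide whether a share differed. How many classes would reach 0.1 by chance was not counted.

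**Figure D2:**
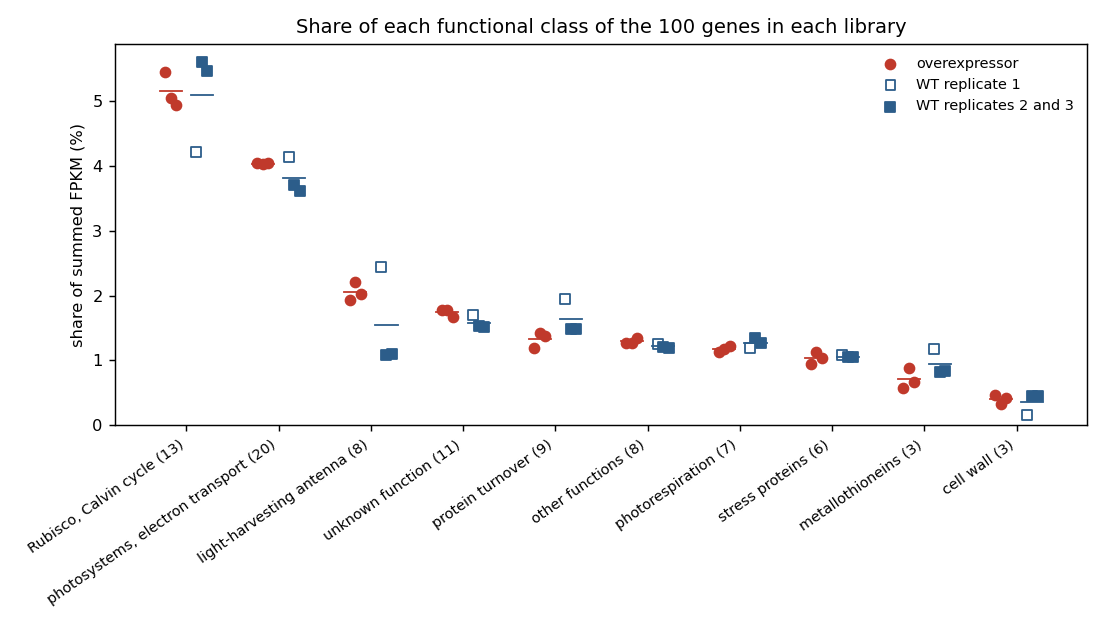
Share of summed FPKM (percent, vertical axis) held by each functional class of at least 3 of the 100 genes, with the number of genes in brackets. Each point is 1 library, red circles for the overexpressor and blue squares for WT (open square: WT replicate 1), and short lines are group means of 3 libraries; the antenna share was 1.93 to 2.22% in the overexpressor and 1.09 to 2.44% in WT, with WT replicate 1 the highest of all.

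Transcripts for carbon fixation formed the largest class by level. The 13 genes of Rubisco and the Calvin cycle held 5.45, 5.06 and 4.95% of the summed FPKM in the overexpressor, against 4.21, 5.61 and 5.47% in WT. WT replicate 1 was the lowest and WT replicates 2 and 3 the highest, with the overexpressor between them, so the difference between the group means (0.0517 percentage points) became -0.391 percentage points without WT replicate 1. RBCS1A (AT1G67090; chromosome 1, 25048158 to 25049667, minus strand), a small subunit of Rubisco, had 11041, 10219 and 8671 FPKM in the overexpressor, against 8655, 10046 and 10107 FPKM in WT (log2 fold change 0.05, SE 0.20, limma adjusted p = 0.943). The groups overlapped, and its highest value was only 1.28 times its lowest.

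The bases upstream of the transcript start of RBCS1A are printed because it is the most abundant transcript of every library. The 300 bases are those of TAIR10.1, chr1:25049668-25049967, read 5′ to 3′ on the minus strand up to the base before the annotated start. Capitals mark a site II motif (TGGGCT) and a reversed TATA box (TTTATA, the complement strand of TATAAA).
RBCS1A: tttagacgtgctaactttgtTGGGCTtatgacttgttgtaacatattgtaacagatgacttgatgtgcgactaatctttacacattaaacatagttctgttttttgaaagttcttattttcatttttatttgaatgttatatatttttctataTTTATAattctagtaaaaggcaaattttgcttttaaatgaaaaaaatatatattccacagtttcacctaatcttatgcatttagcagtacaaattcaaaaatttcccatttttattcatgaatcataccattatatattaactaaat

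The other small subunit genes were less even. RBCS3B had 4874, 3493 and 3818 FPKM in the overexpressor, against 2485, 4532 and 4517 FPKM in WT. RBCS2B had 2863, 2618 and 3084 FPKM in the overexpressor, against 1007, 3171 and 3101 FPKM in WT, so WT replicate 1 lay far below the other 5 libraries. The 3 small subunit genes thus had different spreads, with highest-to-lowest ratios of 1.28 for RBCS1A, 1.96 for RBCS3B and 3.15 for RBCS2B, and all 3 were lowest in WT replicate 1. The longest match of RBCS3B to another gene was 745 bp at 92.2% identity, to RBCS1B, and sharing of reads in this family was not tested. CA1, the stromal carbonic anhydrase, which interconverts carbon dioxide and bicarbonate, followed RBCS2B with 1377, 1096 and 1291 FPKM in the overexpressor, against 434, 1247 and 1201 FPKM in WT.

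Most enzymes of the cycle varied little. RCA, the Rubisco activase, which frees the enzyme from inhibitory sugar phosphates, had 3589.8, 3799.9 and 3661 FPKM in the overexpressor, against 3914, 4189 and 4000.5 FPKM in WT (log2 fold change -0.13, SE 0.14, limma adjusted p = 0.809). All overexpressor plants were below all WT plants, by little. AT3G60750, a transketolase, had 673, 712 and 664 FPKM in the overexpressor, against 658, 702 and 656 FPKM in WT, with a highest-to-lowest ratio of 1.08. The ratios of GAPA, GAPB, FBA2, PGK1, PRK and CP12-2, which encode enzymes of the cycle and a small protein that binds them, lay between 1.13 and 1.27.

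Subunits of the photosystems and of electron transport held a share that hardly varied among the overexpressor plants. The 20 genes took 4.04, 4.03 and 4.04% of the summed FPKM in the overexpressor, against 4.13, 3.70 and 3.61% in WT. PSBR, a photosystem II subunit and the second most abundant transcript, had 4405, 4402 and 4695 FPKM in the overexpressor, against 4736, 4057 and 4089 FPKM in WT (log2 fold change 0.07, SE 0.15, limma adjusted p = 0.896). PSBO1, which stabilises the manganese cluster that splits water, had 1716, 1783 and 1697 FPKM in the overexpressor, against 1788, 1545 and 1487 FPKM in WT. In both genes WT replicate 1 was the highest library and WT replicates 2 and 3 the lowest.

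The pair of transcripts with the smallest ranges of the list was in this class. PDE334 (AT4G32260; chromosome 4, 15573553 to 15574737, minus strand), a membrane subunit of the chloroplast ATP synthase, had 907, 896 and 896 FPKM in the overexpressor, against 922, 919 and 898 FPKM in WT. The values overlapped and the highest-to-lowest ratio was 1.03, a ratio that 0 of the 16870 genes tested undercut. AT2G26500, a cytochrome b6f subunit (PetM), had 786, 742 and 763 FPKM in the overexpressor, against 758, 725 and 728 FPKM in WT. DRT112 (plastocyanin, which carries electrons to photosystem I), FNR1 (ferredoxin-NADP oxidoreductase) and PSBO2 had ratios of 1.09, 1.09 and 1.12.

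Photosystem I and photosystem II subunits differed in evenness. The 6 photosystem II subunits had a median highest-to-lowest ratio of 1.18, and held 1.75, 1.75 and 1.80% of the summed FPKM in the overexpressor, against 1.81, 1.61 and 1.60% in WT. The 5 photosystem I subunits had a median ratio of 1.48, and held 0.899, 0.884 and 0.883% in the overexpressor, against 0.957, 0.698 and 0.6747% in WT. PSAD-1, on the side of photosystem I where ferredoxin docks, had 751, 831 and 782 FPKM in the overexpressor, against 1003, 551 and 520.2 FPKM in WT, the widest range in the class (ratio 1.93). WT replicate 1 was above the overexpressor and WT replicates 2 and 3 below it, an order also found in 7 of the 8 antenna genes. FED A (ferredoxin) and PSBX were the genes of this class in which every overexpressor value lay above every WT value, with log2 fold changes of 0.14 and 0.11; 4.76% of all genes tested were higher without overlap.

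The antenna was the least even large class, and its values split the WT plants. The 8 genes held 1.93, 2.22 and 2.03% of the summed FPKM in the overexpressor, against 2.44, 1.09 and 1.10% in WT (exact permutation test, two-sided, p = 0.4). The median ratio of highest to lowest was 2.65 with all libraries and 2.13 without WT replicate 1. In 7 of the 8 genes WT replicate 1 was the highest library.

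CAB1 (AT1G29930; chromosome 1, 10477885 to 10479114, plus strand), a major light-harvesting protein of photosystem II, had 3227, 3829 and 3202 FPKM in the overexpressor, against 3001, 1556 and 1586 FPKM in WT (log2 fold change 0.81, SE 0.29, limma adjusted p = 0.805). It was the antenna gene whose groups did not overlap, although WT replicate 1 lay just below the lowest overexpressor value. CAB1 matches its neighbour CAB3 over 836 bp at 96.1% identity, so the split of reads between them is uncertain. LHB1B2 (AT2G34420; chromosome 2, 14522524 to 14523568, minus strand), of the same complex, had 1675, 2299 and 2147 FPKM in the overexpressor, against 2983, 463 and 483 FPKM in WT (log2 fold change 1.21, SE 0.74, limma adjusted p = 0.805). WT replicate 1 was the highest library and the other WT plants the lowest, with all overexpressor plants between. All exons of LHB1B2 lie within another annotated locus, AT2G08665, listed at a mean of 0.843 FPKM.

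The photosystem I antenna genes had the same order of libraries as LHB1B2. Their median highest-to-lowest ratio was 2.89, against 2.13 for the 4 photosystem II antenna genes. LHCA1 had 1021, 1151 and 1072 FPKM in the overexpressor, against 1577, 537 and 535 FPKM in WT. LHCA4 had 897, 1072 and 978 FPKM in the overexpressor, against 1492, 444 and 472 FPKM in WT. LHCA3 had 802, 946 and 861 FPKM in the overexpressor, against 1269, 447 and 448 FPKM in WT. In each, WT replicate 1 exceeded every overexpressor plant, which in turn exceeded WT replicates 2 and 3. LHCA2 and LHCB4.1 were flatter, with ratios of 1.35 and 1.31, and LHCB5 lay between, at 1.81.

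The upstream bases of an antenna gene of photosystem II and one of photosystem I are shown because both genes had the order of the libraries seen in 7 of the 8 antenna genes. Each stretch holds the 300 bases before the annotated start in TAIR10.1, 5′ to 3′, at chr2:14523569-14523868 on the minus strand for LHB1B2 and chr1:22699415-22699714 on the plus strand for LHCA3. Capitals mark a TATA box (TATAAA), which begins 31 bases before the start in LHB1B2 and 28 in LHCA3. Such a box is not typical of the class: 3 of the 8 antenna genes held one on either strand within 300 bases. On the coding strand, 16 to 45 bases before the start, it was found in 5 of the 100 genes, against 7.23% of all promoters.
LHB1B2: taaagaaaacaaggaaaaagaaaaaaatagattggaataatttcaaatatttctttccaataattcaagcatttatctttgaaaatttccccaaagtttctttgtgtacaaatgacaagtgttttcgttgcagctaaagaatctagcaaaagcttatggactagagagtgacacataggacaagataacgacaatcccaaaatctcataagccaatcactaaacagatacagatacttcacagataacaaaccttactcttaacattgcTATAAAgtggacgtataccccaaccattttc
LHCA3: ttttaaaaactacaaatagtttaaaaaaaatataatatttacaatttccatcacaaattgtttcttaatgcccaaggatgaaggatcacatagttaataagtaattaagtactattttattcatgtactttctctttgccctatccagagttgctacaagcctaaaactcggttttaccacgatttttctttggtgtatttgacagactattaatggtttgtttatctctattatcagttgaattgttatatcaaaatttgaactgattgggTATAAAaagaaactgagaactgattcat

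Photorespiration was among the most even functions. Its 7 genes held 1.12, 1.18 and 1.22% of the summed FPKM in the overexpressor, against 1.19, 1.34 and 1.27% in WT, with a median highest-to-lowest ratio of 1.22. SHM1, the mitochondrial serine hydroxymethyltransferase, had 1463, 1405 and 1522 FPKM in the overexpressor, against 1309, 1544 and 1477 FPKM in WT. GGT1, a peroxisomal aminotransferase that makes glycine from glyoxylate, had 1071, 1092 and 1141 FPKM in the overexpressor, against 1203, 1163 and 1124 FPKM in WT. GOX1 and GOX2, neighbouring genes for the glycolate oxidases, were each lower in every overexpressor plant than in every WT plant, with log2 fold changes of -0.21 and -0.16 (limma adjusted p = 0.805 for each). CAT3, a catalase that removes hydrogen peroxide and stood in a class of its own with the peroxidase PRXR1, had 2178, 2543 and 2462 FPKM in the overexpressor, against 2967, 2219 and 2279 FPKM in WT.

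Lipid transfer proteins and metallothioneins, both small proteins, stood high outside photosynthesis. LTP4, a secreted lipid transfer protein and the third most abundant transcript, had 3932, 5355 and 4003 FPKM in the overexpressor, against 2755, 4322 and 4225 FPKM in WT. With its neighbour LTP3 it held 0.857, 1.24 and 0.910% of the summed FPKM in the overexpressor, against 0.623, 0.990 and 0.963% in WT. Both were highest in overexpressor replicate 2 and lowest in WT replicate 1.

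The 3 metallothioneins, small cysteine-rich proteins that bind metals, held 0.580, 0.875 and 0.661% in the overexpressor, against 1.17, 0.814 and 0.832% in WT. MT3 had 1723, 2971 and 2042 FPKM in the overexpressor, against 3938, 2649 and 2769 FPKM in WT (log2 fold change -0.49, SE 0.27, limma adjusted p = 0.805). MT2A had 954, 1211 and 1104 FPKM in the overexpressor, against 1846, 930.3 and 919 FPKM in WT. MT2B had 708, 946 and 694 FPKM in the overexpressor, against 1088, 1073 and 1089 FPKM in WT (log2 fold change -0.48, SE 0.15, limma adjusted p = 0.805). MT2B was thus lower in every overexpressor plant, by more than the WT plants differed among themselves, while MT3 and MT2A were highest in WT replicate 1 and overlapped.

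TCTP, the translationally controlled tumour protein, a growth regulator, had 1892, 2568 and 2478 FPKM in the overexpressor, against 3339, 1989.8 and 2082 FPKM in WT. It overlapped between groups and was highest in WT replicate 1. GRP7 (AT2G21660), an RNA-binding protein whose transcript cycles with the circadian clock, had 2046, 2577 and 2346 FPKM in the overexpressor, against 3982, 1339.7 and 1392 FPKM in WT. WT replicate 1 was 2.97 times the lowest library, and the order of the libraries was that of 7 of the 8 antenna genes. The 100 bases before the start of GRP7 are shown because they hold 3 evening elements (AAATATCT, on either strand, in capitals), a motif known from clock-regulated promoters. They lie at chr2:9266558-9266657 in TAIR10.1 and are read 5′ to 3′ on the minus strand.
GRP7: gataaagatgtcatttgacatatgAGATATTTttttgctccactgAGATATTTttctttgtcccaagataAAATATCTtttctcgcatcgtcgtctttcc

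Of the 9 genes for protein turnover, 5 were lower in every overexpressor plant than in every WT plant, against 9.69% of all genes tested. The class held 1.19, 1.42 and 1.38% of the summed FPKM in the overexpressor, against 1.95, 1.48 and 1.48% in WT, with no overlap (exact permutation test, two-sided, p = 0.1, the smallest possible, adjusted p = 0.9). In 8 of the 9 WT replicate 1 was the highest library, and without it the difference of the means was -0.152 in place of -0.309 percentage points. GAMMA-VPE, a cysteine protease that processes vacuolar proteins, had 1088, 1620.1 and 1431 FPKM in the overexpressor, against 2849, 1892 and 1925 FPKM in WT (log2 fold change -0.68, SE 0.24, limma adjusted p = 0.805). Its groups did not overlap. AT4G16190, a papain-family protease, had 1101, 1526 and 1346 FPKM in the overexpressor, against 2357, 1309 and 1319 FPKM in WT, with overlap. ALP, the aleurain-like protease, had 593, 681 and 653 FPKM in the overexpressor, against 891, 682 and 695 FPKM in WT, where the gap between the groups was a fraction of 1 FPKM. The other genes of the class without overlap, RD19, RD21A and UBQ10, had log2 fold changes of -0.15, -0.18 and -0.17.

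Stress proteins held a similar share in every plant, while single genes of the class were less even. The 6 genes took 0.943, 1.13 and 1.04% of the summed FPKM in the overexpressor, against 1.09, 1.05 and 1.05% in WT. DI19, a drought-induced zinc finger protein, had 1057, 1517 and 1404 FPKM in the overexpressor, against 2014, 1236 and 1246 FPKM in WT. HSC70-1, a constitutive chaperone, had 1206, 1371 and 1226 FPKM in the overexpressor, against 1549, 1324 and 1337 FPKM in WT. Both were highest in WT replicate 1 and lowest in overexpressor replicate 1, and the groups overlapped. The dehydrins ERD14 and AT1G54410, the BURP-domain protein RD22 and ERD15 overlapped too, with ratios of 1.38 to 1.91.

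Among the 8 genes of other functions stood THI1, which makes the thiazole ring of thiamine, and PATL1, a membrane-trafficking protein. THI1 had 1757, 2179.9 and 1889.5 FPKM in the overexpressor, against 2802, 1687 and 1624 FPKM in WT. PATL1 had 965, 847 and 1008 FPKM in the overexpressor, against 980.2, 1152 and 1153 FPKM in WT. Both overlapped between the groups. BBD1 (a nuclease of basal defence), GRP-3 (a glycine-rich protein), ARFA1E (a small GTPase of vesicle budding), FAD2 (the oleate desaturase of the endoplasmic reticulum) and APS4 also overlapped, with ratios of 1.17 to 1.94.

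TGG2 (AT5G25980; chromosome 5, 9072708 to 9075777, plus strand), a myrosinase, the enzyme that cleaves glucosinolates in the mustard-oil defence, had the widest range of the 100 genes. It had 1439, 741 and 1456 FPKM in the overexpressor, against 40.2, 801 and 863 FPKM in WT (log2 fold change 1.92, SE 1.21, limma adjusted p = 0.805). The 40.2 FPKM of WT replicate 1 rest on 3534 reads and put TGG2 at rank 2888 in that library. The highest-to-lowest ratio was 36.2 with all libraries and 1.96 without WT replicate 1, where the log2 fold change was 0.48 (limma adjusted p = 0.646). The gene stayed on the list because its other 5 values were high. Its 300 upstream bases are shown as those of the least even gene, from chr5:9072408-9072707 in TAIR10.1, plus strand, 5′ to 3′. Capitals mark a TATA box (TATAAA) that begins 7 bases before the annotated start and a reversed one (TTTATA) 264 bases before it.
TGG2: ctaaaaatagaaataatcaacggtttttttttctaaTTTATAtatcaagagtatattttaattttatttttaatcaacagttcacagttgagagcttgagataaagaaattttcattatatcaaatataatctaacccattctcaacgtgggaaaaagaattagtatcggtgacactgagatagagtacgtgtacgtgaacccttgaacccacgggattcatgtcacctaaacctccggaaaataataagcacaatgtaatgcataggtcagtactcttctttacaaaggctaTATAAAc

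The classes of 1 or 2 genes that remain overlapped between the genotypes, except for PRXR1, a peroxidase, which was higher in every overexpressor plant (log2 fold change 0.30, SE 0.15, limma adjusted p = 0.805). AT2G33830 and DYL1, of the dormancy- and auxin-associated family, had ratios of 1.65 and 1.30. GAPC2 and FBA5, of glycolysis, had ratios of 1.22 and 1.26. SAM1, which makes S-adenosylmethionine, and PIP1;5, a plasma membrane aquaporin, were lowest in WT replicate 1, at 549 and 382 FPKM, with ratios of 2.27 and 2.15.

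Cell wall transcripts were few in the list and depended on WT replicate 1. The 3 genes held 0.467, 0.324 and 0.416% of the summed FPKM in the overexpressor, against 0.162, 0.446 and 0.457% in WT. POM1, a chitinase-like protein needed for normal cellulose deposition, had 1190.5, 821 and 1046 FPKM in the overexpressor, against 477, 964 and 1015 FPKM in WT. BGAL1, a beta-galactosidase, had 898, 536 and 731 FPKM in the overexpressor, against 172, 943 and 913 FPKM in WT. CCoAOMT1, a methyltransferase of lignin synthesis, was also lowest in WT replicate 1, at 298 FPKM, and ranked 199th there. The wall markers of fibres and vessels were low in the same library, as given above. Without WT replicate 1 the difference of the class means was -0.0494 percentage points in place of 0.0473.

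The 11 genes of unknown or poorly described function held 1.78, 1.78 and 1.68% of the summed FPKM in the overexpressor, against 1.70, 1.53 and 1.52% in WT (exact permutation test, two-sided, p = 0.2). AILP1, of the family annotated as aluminium-induced, had 919.8, 1176 and 1085 FPKM in the overexpressor, against 1968, 1263 and 1278 FPKM in WT. CCL, annotated as CCR-like, had 1014, 1325 and 1167 FPKM in the overexpressor, against 1979, 956 and 941 FPKM in WT. The groups did not overlap for AILP1, lower in the overexpressor, and overlapped for CCL.

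Others of the class were higher in every overexpressor plant. AT2G25510 had 1192, 1312 and 1054 FPKM in the overexpressor, against 728, 1002 and 965 FPKM in WT. ECS1 had 1064, 1088 and 915 FPKM in the overexpressor, against 729.7, 847 and 819 FPKM in WT. AT5G42530 had 1245, 1397 and 1140.5 FPKM in the overexpressor, against 857, 1104 and 1032 FPKM in WT. In these 3 genes WT replicate 1 was the lowest library, and their log2 fold changes were 0.41, 0.35 and 0.34 (limma adjusted p = 0.805 for each).

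The class also held 3 of the 6 widest ranges. AT3G15450 had 1332, 536 and 729 FPKM in the overexpressor, against 214, 655 and 712 FPKM in WT. AT1G62480, annotated as a vacuolar calcium-binding protein, had 1062, 574 and 714 FPKM in the overexpressor, against 280.0, 594 and 653 FPKM in WT. Both were highest in overexpressor replicate 1 and lowest in WT replicate 1. AT1G13930, annotated as oleosin-B3-like, had 713, 969 and 1016 FPKM in the overexpressor, against 1349.9, 399 and 446 FPKM in WT, with WT replicate 1 the highest.

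By the range over the 6 libraries, the 100 genes were somewhat more even than the transcriptome. Pair by pair this did not hold throughout, as given below. Their median ratio of highest to lowest FPKM over the 6 libraries was 1.38, against 1.53 for the next 100 genes by rank and 1.51 for all genes tested. A ratio under 1.5 was seen in 56 of the 100 genes and in 49.4% of all genes tested, and a ratio over 2 in 25 of the 100 and in 25.9% of all. Without WT replicate 1 the medians drew together, at 1.28 for the 100 genes, 1.29 for the next 100 and 1.30 for all. The ratio of 10 of the 100 genes lay within the lowest 5% of all genes tested and that of 1 gene, TGG2, within the highest 5%.

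By function, the classes differed in evenness, in part through WT replicate 1. Medians of the ratio were 1.20 for photosystems and electron transport, 1.21 for Rubisco and the Calvin cycle and 1.22 for photorespiration. They were 1.502 for protein turnover, 1.62 for stress proteins, 1.86 for genes of unknown function, 2.01 for metallothioneins, 2.49 for cell wall genes and 2.65 for the antenna. Without WT replicate 1 protein turnover came to 1.21, stress proteins to 1.45, genes of unknown function to 1.39, metallothioneins to 1.57 and cell wall genes to 1.45, against 1.16 for photosystems and electron transport, 1.17 for Rubisco and the Calvin cycle and 1.22 for photorespiration, and only the antenna, at 2.13, stayed above 2. With and without that library photosynthesis held both the most even and the least even of these classes.

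**Figure D3:**
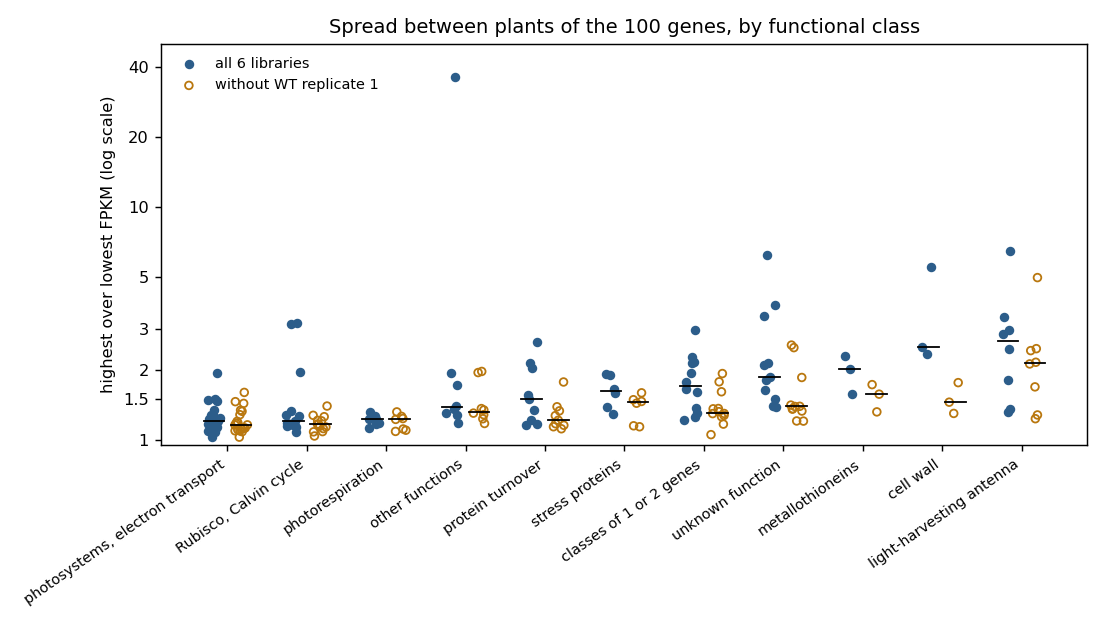
Ratio of the highest to the lowest FPKM (vertical axis, log scale) for each of the 100 genes, by functional class, over all 6 libraries (filled points) and without WT replicate 1 (open points). Bars are class medians; the antenna stays widest without WT replicate 1, at 2.13, while the cell wall class drops to 1.45.

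The plants differed from each other by unequal amounts. Over the 100 genes, the median absolute log2 difference was 0.0966 to 0.142 between overexpressor plants and 0.0516 between WT replicates 2 and 3. It was 0.136 to 0.202 between overexpressor plants and WT replicates 2 or 3, and 0.200 to 0.364 in pairs with WT replicate 1. Over all genes tested, these medians were 0.136 to 0.199, 0.0665, 0.117 to 0.167 and 0.247 to 0.401, in the same order. The 100 genes differed more than all genes in every pair of an overexpressor plant with WT replicate 2 or 3. They also did so between WT replicate 1 and the other WT plants, and differed less in the remaining pairs. WT replicates 2 and 3 were thus the closest pair. In units of counting noise, with the median difference scaled as an SD, they differed by 9.11 over the 100 genes. Over all genes tested, most of which have lower counts, the same value was 1.78. The median SD of log2 values was 0.118 within the overexpressor and 0.195 within WT. WT replicate 1 was the highest library for 45 of the 100 genes, against 42.4% of all genes tested, and the lowest for 30, against 31.9%.

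**Figure D4:**
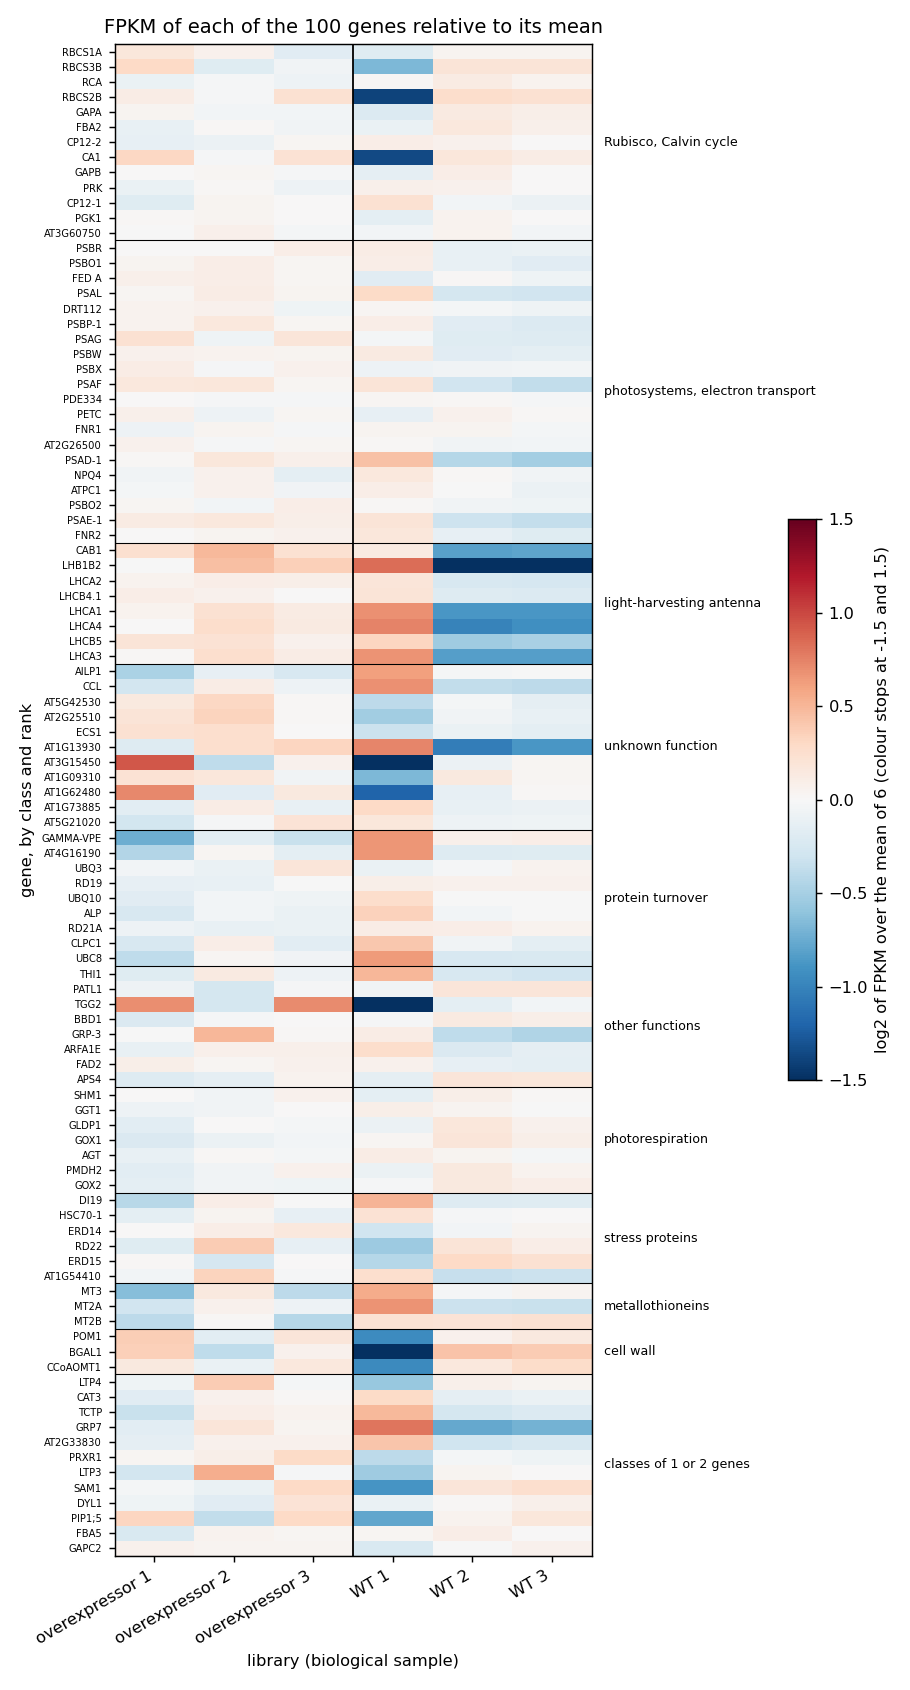
Log2 of each gene's FPKM over its mean of the 6 libraries (colour, from blue for below to red for above the mean) for the 100 genes (rows, by class and rank) in the 3 overexpressor and 3 WT libraries (columns). The column of WT replicate 1 holds most of the strong colours, red for the antenna and blue for the cell wall genes and TGG2, while WT replicates 2 and 3 look alike.

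Between the genotypes no gene of the 100 passed the test. With limma on log2(FPKM + 1) over 16870 genes and Benjamini-Hochberg adjustment, 0 of the 100 were called at an adjusted p under 0.05, where 0.0119% of all genes tested were called, and the smallest adjusted p among them was 0.805. At an unadjusted p under 0.05 there were 4, against 5.43% of all genes tested. These were GAMMA-VPE and MT2B, lower in the overexpressor, and CAB1 and ECS1, higher in it. Voom on the recovered reads called 0 of the 100 as well, against 0.00593% of all genes. The median log2 fold change was 0.05 over the 100 genes, of which 58 were positive, and -0.04 over all genes tested.

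The 2 groups did not overlap in 17 of the 100 genes, 7 higher and 10 lower in the overexpressor, against 14.5% of all genes tested, 4.76% higher and 9.69% lower. The share is close to the background. The 7 higher genes were CAB1, AT2G25510, ECS1, AT5G42530, PRXR1, FED A and PSBX. The 10 lower genes were GAMMA-VPE, AILP1, MT2B, ALP, RCA, GOX1, GOX2, RD19, RD21A and UBQ10, of which 5 belong to protein turnover and 2 to photorespiration.

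Setting WT replicate 1 aside changed this comparison. Then 3 of the 100 genes were called by limma, all antenna genes and all higher in the overexpressor, against 0.136% of all genes tested. They were LHB1B2 (log2 fold change 2.09, limma adjusted p = 0.0127), LHCA1 (1.01, limma adjusted p = 0.0334) and LHCA4 (1.10, limma adjusted p = 0.0403). In this fit WT is represented only by replicates 2 and 3, the closest pair of libraries, and WT replicate 1 lay above all overexpressor plants for each of the 3 genes. At an unadjusted p under 0.05 there were 25 genes, against 10.6%. The groups did not overlap in 56 genes, against 31.3% of all genes tested, with 36 higher against 12.3% and 20 lower against 19%. All 8 antenna genes and 14 of the 20 photosystem and electron transport genes were among the 36, and 4 Calvin cycle and 3 photorespiration genes among the 20.

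Ribosomal proteins, a large gene group, were absent from the list. Those of cytosol and organelles together numbered 341 in the table and held 3.87% of the summed FPKM, against 2.27% for 27 antenna genes. Of the ribosomal protein genes 0 were among the 100, the best ranked 115th and 41 in all stood within rank 500. Genes matched by the cell wall terms numbered 626 and held 2.35%, with 22 within rank 500; the terms do not match the 3 cell wall genes of the list, which were placed by hand. Of the 27 genes matched by the antenna terms, 9 were among the 100, NPQ4 (a photosystem II protein of energy dissipation, counted here with the photosystems) included.

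In 300 bases upstream of the annotated start, on both strands, the 100 genes held common promoter motifs in shares near those of all 24355 promoters for site II, below them for the TATA and telo boxes and above them for the rest. The TATA box (TATAAA) was found in 44 of the 100, against 51.5% of all promoters, and site II (TGGGCC or TGGGCT) in 23, against 22.0%. The I-box core (GATAAG), known from light-regulated promoters, was found in 25, against 14.8%, and in 24 of the next 100 genes by rank. The G-box (CACGTG) was found in 11, against 7.55%, the evening element (AAATATCT) in 11, against 5.71%, and the telo box (AAACCCTA) in 2, against 4.53%. None of these shares was tested, and a match in letters does not show that a factor binds. Exons of other genes were not taken out of the upstream stretches, and fill all 300 bases for GAPA, PSBP-1 and CA1.

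By the limits used here, copies and overlaps concern few of the values. Of the 100 genes, 3 had another transcript matching at least 50% of their length at 95% identity or more: CAB1, LHB1B2 and PSAG. Long matches of lower identity are not counted there, such as RBCS2B to RBCS1B (88.9% over 91.7% of the transcript) and GOX1 to GOX2 (89.1% over 86.0%). Sharing of reads in such pairs was not tested. Exons of another gene overlapped at least 10% of the exonic length of 8, among them LHB1B2 (100%), PSAG (61.4%) and PSAE-1 (34.1%). Strand use in the counting is not given in the sources used here, so reads in such overlaps cannot be assigned to one gene.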

How the data were processed

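Per the labels' protocols, total RNA of each stem sample was made into libraries with a NEBNext Ultra kit. HISAT2 was among the tools, per the submitters' processing notes; neither its version nor the counting program or genome build is named in the labels or files. The deposited table gives the authors' FPKM values of 24434 genes in 6 libraries; 0 columns were left over. FPKM times the union exonic length in the RefSeq annotation of TAIR10.1 gave whole reads for 100% of values (tolerance 0.1 reads), so that build was inferred and used for coordinates and sequences.

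The main test was limma (version 3.58.1, R 4.3.3) on log2(FPKM + 1), two-sided, with intensity trend, over the 16870 genes averaging 1 FPKM or more. Adjustment over all of them followed Benjamini and Hochberg, and a gene was called under 0.05. Fold changes are overexpressor over WT on that scale. Shares were compared by exact permutation of 3 against 3 libraries. The limma step was run on simulated data in which no library stood apart as WT replicate 1 does, so that setting was not tested. Voom used the recovered reads.

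Functional classes came from word patterns in gene names and products: 28 genes were placed by pattern alone, 31 by pattern and by hand alike, 33 by hand where no pattern matched, and 8 were moved by hand. Near-identical transcripts were sought with BLAST (version 2.17.0), and promoters were the 300 bases before each gene's annotated start. The rule for named genes took the 10 genes of highest mean FPKM, the 2 highest of each class of at least 3 genes, the 6 with the largest and the 6 with the smallest highest-to-lowest ratio, the 4 genes without overlap that changed most in either direction, every gene called, and the genes on either side of the edge of the list. Genes outside it were named after their values were seen. The 100 genes, the classes, the markers and the motifs were chosen with earlier results of these data known. Alternatives covered the pseudocount, the filter, the scaling, the ranking, the replicate block and leaving out each library. Per the labels' protocols each sample is a separate plant; p-values then measure the spread between plants and library preparation together.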

Additional observations from a re-analysis of the deposited data

How the results depend on the processing

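WT replicate 1 had the most effect on the results. Leaving out each library in turn gave 0 to 3 of the 100 genes called by limma, where the 3 are those without WT replicate 1, and 19 to 56 genes without overlap in place of 17, with 33 without overexpressor replicate 2 and 56 without WT replicate 1; fewer libraries make overlap less likely by construction. LHB1B2 passed the threshold without WT replicate 1 (log2 fold change 2.09). The difference in share (overexpressor minus WT, percentage points) changed sign for Rubisco and the Calvin cycle, 0.0517 with all libraries, to -0.0962 without overexpressor replicate 1 and -0.391 without WT replicate 1, in a leave-one-out range up to 0.308. It changed sign for cell wall genes to -0.0494 without WT replicate 1, in a leave-one-out range up to 0.0985, and for stress proteins, -0.0235 with all libraries, to 0.0231 without overexpressor replicate 1 (lowest leave-one-out value -0.0680) and 0.0509 over the 200 genes of highest mean. Over the 50 genes of highest mean it was -0.0106 for genes of unknown function and -0.0480 for other functions. The causes of these changes of sign were not tested. The other 182 values of these comparisons kept their direction and their side of the threshold or, for counts, stayed within 1.5 times the value with all libraries. Ranking the genes by recovered reads per median transcript length, an alternative chosen after seeing the data, kept 93 of the 100.

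With the replicate number as a block, limma called 0 of the 100 genes and 0 of all genes, against 2 of all genes without the block. Deviations from the group mean correlated at -0.603, -0.592 and 0.0282 between plants of the same number. Between plants of other numbers they correlated at -0.612 to 0.622. With 3 plants per group and WT replicate 1 far from the others, these values cannot show whether the numbers pair the samples. Median-ratio scaling moved the median log2 fold change from -0.04 to 0.00 over all genes and to 0.09 over the 100, of which 65 were then positive in place of 58. Depth does not limit these genes, each with at least 3534 reads per library.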
